A study of Mus musculus with 23 samples.

Results

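The clustered protocadherins are cell-adhesion proteins of the cadherin superfamily whose genes lie side by side in the alpha (Pcdha), beta (Pcdhb) and gamma (Pcdhg) clusters. Each alpha or gamma gene has its own first exon, which encodes the whole extracellular part, the membrane span and a short intracellular stretch, and splices to constant exons that are common to its cluster. A beta gene encodes its whole protein without constant exons. Single neurons choose a small set of these genes, and matching sets on touching membranes are known to let neurites of 1 cell recognize and avoid each other. The C-type genes at the end of the alpha and gamma clusters are regulated apart from the rest. The members were all genes whose mouse symbol is that of an alpha, beta or gamma clustered protocadherin, which gave 58 of the 55487 gene IDs measured: 14 alpha, 22 beta and 22 gamma genes.

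RNA came from hippocampal cells of C57Bl/6 pups of postnatal day 1, of which 200000 were seeded on the soma side of a microfluidic chamber, a culture device in which axons grow through narrow channels into their own compartment. All cultures, controls included, received magnetic nanoparticles at 5 µg/ml. Stretched cultures were held in a magnetic field gradient of 50 T/m from day in vitro 1 to 6, and control cultures had a null gradient. Axonal RNA gave 5 control and 6 stretched libraries, and RNA of cell bodies and dendrites (soma libraries) gave 6 of each. The labels do not say whether libraries of a group came from separate animals or cultures, so p-values measure the spread between these libraries, which may be technical.

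Library totals ranged from 16.4 to 43.0 M counts (M, 1000000). The control soma library numbered 4 stood apart from the other controls, as shown for each cluster below. The soma libraries also fell into a set with a high level of the Y-linked gene Eif2s3y (replicates 1, 2, 3 and 8, 24.7 to 28.7 CPM, counts per 1000000 counts) and a set with a low level (replicates 4, 5 and 6, 5.39 to 13.2 CPM). The cultures held other cells than neurons: the summed level of 9 astrocyte markers was 10595 to 14841 CPM in the high set and 5299 to 6669 CPM in the low set. Axonal libraries, which the labels call a pure preparation, held the same 9 markers at 4791 to 25995 CPM. They also held 6 transcripts of the nucleus or soma, Malat1 among them, at a summed 1009 to 2868 CPM in control and 543 to 2924 CPM in stretched axons, beside 1409 to 2305 and 857 to 1596 CPM in the soma groups.

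The genes occupy chromosome 18 of the mouse genome (build mm10). In the GENCODE annotation of that build the alpha genes span 36930184 to 37187661, the beta genes 37264938 to 37524479 and the gamma genes 37661793 to 37841873, all on the plus strand. The constant exons belong to every alpha or every gamma gene, so reads inside them cannot be given to 1 member and a gene counter sets them aside as ambiguous. Exonic bases shared with another gene made up a median of 53.6% of an alpha gene (38.9% to 91.4%) and 44.7% of a gamma gene (31.5% to 66.8%), against 0% of the median beta gene (highest 9.67%). The counts of alpha and gamma members therefore rest on the exon bases that each does not share. Reads set aside as ambiguous, over all genes, were 5.05% ± 0.187 (SD, n = 6) of the total in control somata and 4.69% ± 0.211 (SD, n = 6) in stretched somata. The share of those reads that came from the protocadherin constant exons cannot be read from the files.

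Several members could hardly be measured. Pcdhga10 had 0 counts in all 23 libraries, and Pcdha4 had 0 to 2. Without regard to strand, Pcdhga10 had 0 bases of exon to itself, because the gene Gm26672 on the opposite strand covers the 2613 bases of its first exon, and Gm26672 itself had 6 to 31 counts per soma library. Pcdha4 had 404 unshared bases, and its partner Gm42416, annotated across members, had 0 counts in all 23 libraries, as had the other such genes Gm37388, Gm37013 and Gm38182. The name table gave Pcdha11 to 2 IDs. RefSeq, on the same build, places Pcdha10 at the first of them (ENSMUSG00000007440, 205 to 523 counts per soma library) and Pcdha11 at the second (ENSMUSG00000102206, 0 to 8 counts). Whether the authors' counting used strand is not given in the sources used here, so reads of a member and of a gene on its opposite strand cannot be told apart.

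In somata nearly the whole family was present, at levels that differed widely between members. Levels between genes were compared as CPM per 1000 exonic bases not shared with another gene on either strand, for the 56 members with at least 1000 such bases, averaged over the 12 soma libraries. The highest was the C-type gene Pcdhgc3 at 31.0 ± 5.53 (SD, n = 12), but its length depends on strand: on its own strand it has 3380 unshared bases in place of 1821, which would put it at 16.7. Next came Pcdhga11 at 17.7 ± 4.95 (SD, n = 12), which would be 8.42 by its stranded length, Pcdhb9 at 17.1 ± 2.69, Pcdhga3 at 14.7 ± 3.67 and Pcdhb7 at 11.9 ± 1.497. The order among Pcdhga11, Pcdhb9 and Pcdhga3 was within their spread. Pcdha12, the highest alpha gene by this length, had 11.7 ± 1.53 and the C-type Pcdhgc4 11.7 ± 2.702 (both SD, n = 12), which cannot be put in an order either. By its stranded length Pcdha12 would be at 9.18, below Pcdha2 at 10.6. The lowest were Pcdhb1 at 0.0672 ± 0.0509, the second ID named Pcdha11 at 0.113 ± 0.0851, which would be 0.0312 and the lowest by its stranded length, and Pcdhgb8, annotated as a polymorphic pseudogene, at 0.539 ± 0.300 (SD, n = 12). The median per-length level was 6.80 over 13 alpha, 2.10 over 22 beta and 5.35 over 21 gamma members.

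**Figure D1:**
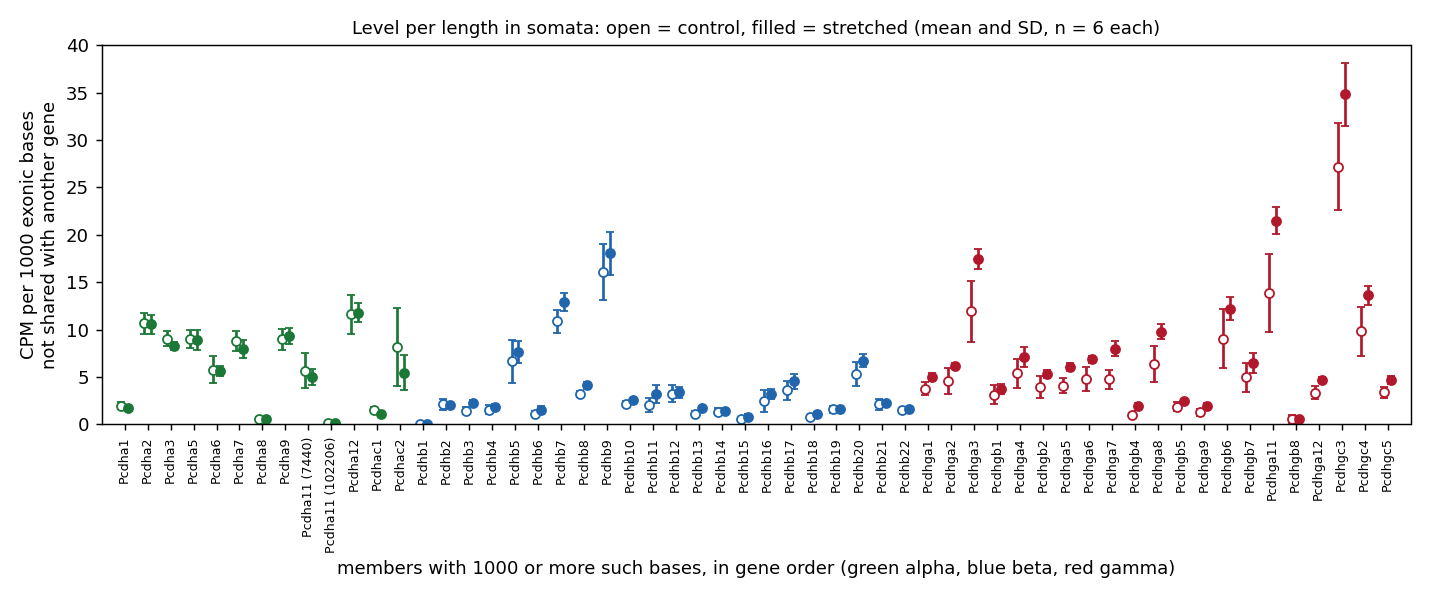
Level per length (CPM per 1000 unshared exonic bases) of each member with at least 1000 such bases in control (open) and stretched (filled) somata, mean and SD of 6 libraries each, in gene order. Pcdhgc3 is highest, most beta genes lie under 5 with Pcdhb9 and Pcdhb7 above 10, and the filled points of the gamma genes lie above the open ones.

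The first question of the design was what stretch did in somata. Of the members tested, 13 of 21 gamma and 5 of 21 beta genes rose, beside 11.2% of all genes. Of 12 alpha genes 0 passed the test. Each cluster was first summed per library on the scale of CPM normalized by TMM (trimmed mean of M-values). The alpha sum was lowest 187, median 188 and highest 216 in the 6 control libraries, and 154, 182 and 191 in the 6 stretched libraries. The beta sum was 223, 245 and 349 in controls and 276, 310 and 348 after stretch. The gamma sum was 269, 279 and 446 in controls and 417, 430 and 460 after stretch. The alpha and beta values overlapped between groups. The gamma values overlapped through control soma 4, at 446, while the other 5 controls lay between 269 and 314, below every stretched library. The ratio of stretched to control means was 0.925 for alpha, 1.20 for beta and 1.40 for gamma, and without control soma 4 the beta and gamma ratios were 1.29 and 1.53. These sums were given no test, since the members were chosen with results known.

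**Figure D2:**
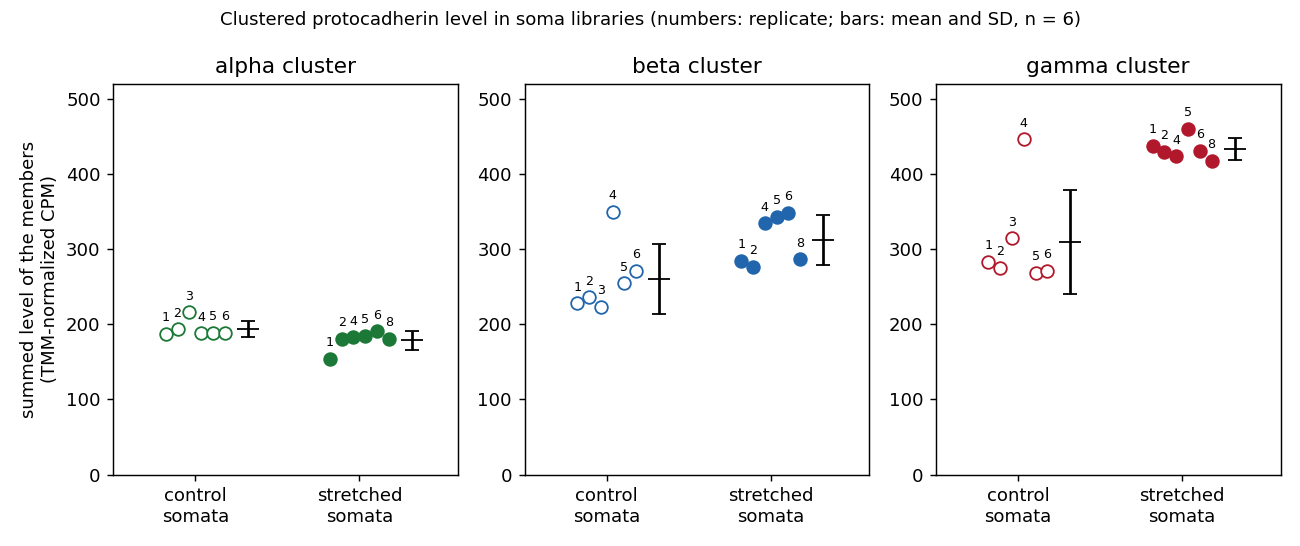
Summed level of the alpha, beta and gamma members (TMM-normalized CPM) in each soma library, numbered by replicate, with mean and SD of 6 libraries per group beside the points. The 6 stretched libraries lie between 417 and 460 for gamma, and of the controls only replicate 4, at 446, reaches that range.

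The balance between clusters, taken within each library, does not depend on scaling to library size. The gamma sum was 1.42 to 2.37 times the alpha sum in controls, with a median of 1.45, and 2.26 to 2.83 times in stretched libraries, with a median of 2.35. Control soma 4 gave the 2.37, and the other controls reached 1.51. The beta-to-alpha ratio ran from 1.03 to 1.86 in controls and from 1.53 to 1.86 after stretch. The gamma-to-beta ratio ran from 1.00 to 1.41 and from 1.24 to 1.55, so both of these overlapped.

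Gene by gene, 54 of the 58 members passed the filter on low counts, and Pcdha4, the second ID named Pcdha11, Pcdhb1 and Pcdhga10 did not. At an adjusted p under 0.05 in edgeR's quasi-likelihood test, 18 members rose and 0 fell. Over all 15632 genes tested, 11.2% rose and 13.9% fell, so 25.1% were called. Of 21 gamma members tested 13 rose, of 21 beta members 5 rose, and of 12 alpha members 0 were called in either direction. The same counts at an unadjusted p under 0.05 were 19 gamma, 7 beta and 0 alpha members, beside 39.4% of all genes in either direction. The beta share lay below that 39.4%, but all 26 of these members were higher, so the directions are unlike. At the adjusted threshold 23.8% of the beta members rose, beside the 11.2% of all genes that rose. There DESeq2 called 17 gamma and 6 beta members higher and 0 alpha members, beside 31.0% of all genes in either direction. For limma voom these were 19, 8 and 0, beside 35.5% in either direction. The median log2 fold change of the members tested was 0.47 in gamma, 0.27 in beta and -0.08 in alpha, beside -0.03 over all genes. All 21 gamma estimates were positive, from 0.11 to 0.88.

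**Figure D3:**
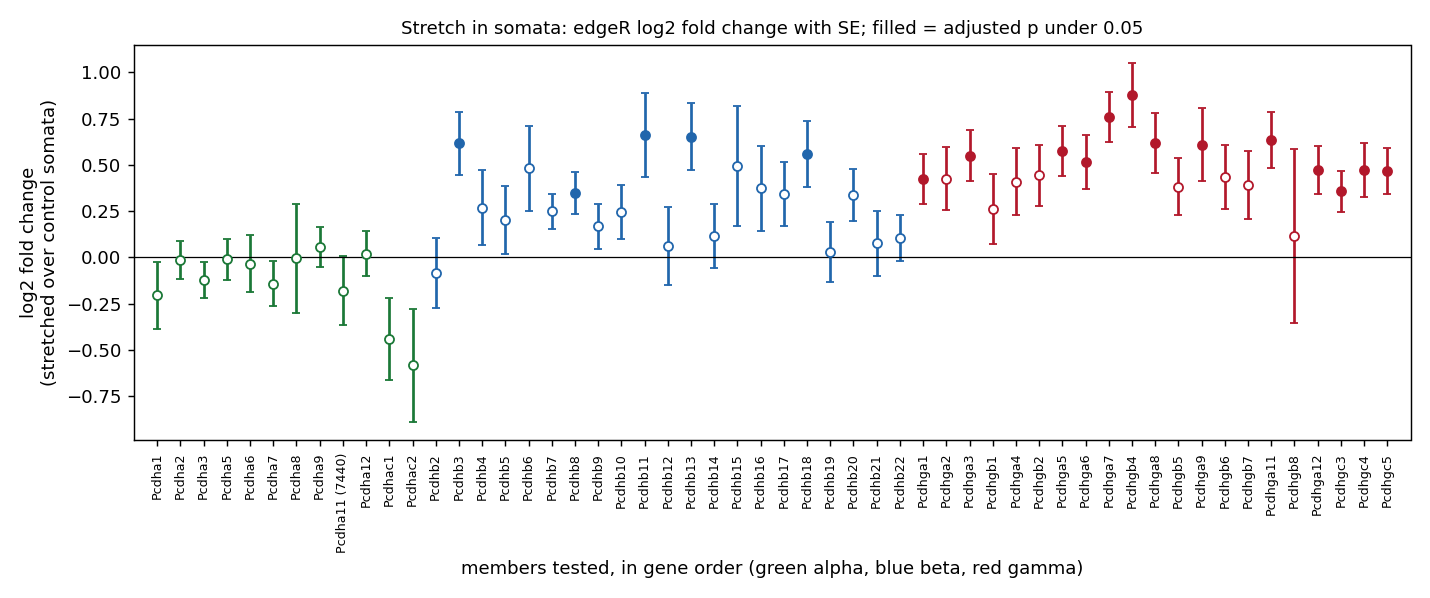
Log2 fold change of each tested member (stretched over control somata, edgeR) with its SE, in gene order; green is alpha, blue beta and red gamma, and filled points passed an adjusted p of 0.05. The 21 gamma estimates all lie above 0, from 0.11 to 0.88, and 10 of 12 alpha estimates lie below 0.

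The gamma genes that rose were 9 of 11 tested A-type genes (Pcdhga1, Pcdhga3, Pcdhga5, Pcdhga6, Pcdhga7, Pcdhga8, Pcdhga9, Pcdhga11 and Pcdhga12), 1 of 7 B-type genes (Pcdhgb4), and all 3 C-type genes. These counts stand beside 11.2% of all genes that rose. They depend on the threshold and were not tested as a difference between types. The other B-type estimates ran from 0.11 (Pcdhgb8) to 0.44 (Pcdhgb2, edgeR adjusted p = 0.0581). Called genes such as Pcdhga1 (0.42) and Pcdhgc3 (0.36) lay within that range. Gene levels from here on are TMM-normalized CPM, as lowest, median and highest of 6 libraries. Pcdhgb4, the largest change, had 3.19, 3.62 and 4.28 in controls and 4.55, 6.84 and 8.55 in stretched somata. The groups did not overlap, and the log2 fold change was 0.88 (SE 0.18, edgeR adjusted p = 0.00578). Pcdhga7 had 10.3, 11.2 and 17.1 in controls and 17.9, 20.3 and 23.2 after stretch, again with no overlap, and the log2 fold change was 0.76 (SE 0.14, edgeR adjusted p = 0.00432). Its highest control was replicate 4, and the other controls lay at or under 11.8.

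Pcdhga11 had 14.0, 15.4 and 27.6 in controls and 25.3, 26.5 and 30.5 after stretch (log2 fold change 0.63, SE 0.15, edgeR adjusted p = 0.0109). Pcdhga8 had 9.36, 12.3 and 20.4 against 18.4, 20.0 and 22.5 (log2 fold change 0.62, SE 0.16, edgeR adjusted p = 0.0155). In both genes the groups overlapped through control soma 4 alone. Pcdhga3, the most abundant A-type gene by CPM, had 23.7, 28.4 and 47.2 in controls and 41.6, 44.9 and 49.4 after stretch, with the same overlap, and its log2 fold change was 0.55 (edgeR adjusted p = 0.0129). Pcdhga12 (0.47) and Pcdhga1 (0.42) rose less, and Pcdhga1 had separate groups, with controls up to 12.9 and stretched libraries from 13.2.

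The gamma C-type genes rose by similar amounts. Pcdhgc3, which is expressed outside the nervous system as well, had 41.9, 46.6 and 63.0 in controls and 54.1, 63.0 and 72.0 after stretch (log2 fold change 0.36, SE 0.11, edgeR adjusted p = 0.0296). Its groups overlapped by more than control soma 4. Pcdhgc4, an isoform needed for the survival of interneurons, had 23.1, 34.2 and 48.2 against 44.1, 47.0 and 53.4 (log2 fold change 0.47, SE 0.14, edgeR adjusted p = 0.0279). Pcdhgc5, which comes on late in development, had 13.1, 14.8 and 19.0 against 19.4, 21.3 and 24.9, with no overlap (log2 fold change 0.47, SE 0.12, edgeR adjusted p = 0.0155). C-type genes made up 32.2% ± 2.48 (SD, n = 6) of the gamma sum in controls and 30.5% ± 1.73 (SD, n = 6) after stretch, so their share of the cluster moved by less than its spread.

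The 2 alpha C-type genes had negative estimates that did not pass the test. Pcdhac2, the isoform that serotonergic neurons need for the spacing of their axons, varied most: 12.04, 21.3 and 43.8 in controls and 11.6, 15.4 and 27.2 after stretch (log2 fold change -0.58, SE 0.31, edgeR adjusted p = 0.173). Pcdhac1 had 2.67, 4.07 and 4.52 against 1.84, 2.57 and 3.88 (log2 fold change -0.44, SE 0.22, edgeR adjusted p = 0.150). In the high set alone Pcdhac1 was called lower, and in the low set alone its estimate was 0.017. The most abundant ordinary alpha genes lay close to 0: Pcdha2 at -0.01 (SE 0.10), Pcdha12 at 0.02 (SE 0.12) and Pcdha9 at 0.05 (SE 0.11). Pcdha2 had 22.0, 26.7 and 30.0 in controls and 23.5, 26.6 and 28.8 after stretch, which overlapped throughout.

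The 5 beta genes that rose were Pcdhb3, Pcdhb8, Pcdhb11, Pcdhb13 and Pcdhb18. Pcdhb8 had 10.2, 10.9 and 12.8 in controls and 13.2, 14.0 and 16.8 after stretch, the single beta gene whose groups did not overlap (log2 fold change 0.35, SE 0.11, edgeR adjusted p = 0.0349). Pcdhb11 had 5.72, 8.14 and 14.9 against 9.91, 12.2 and 20.0 (log2 fold change 0.66, SE 0.23, edgeR adjusted p = 0.0452). Pcdhb13 had 2.67, 4.08 and 5.89 against 5.26, 6.57 and 7.18 (log2 fold change 0.65, SE 0.18, edgeR adjusted p = 0.0192). The 3 most abundant beta genes did not pass. Pcdhb9 had 40.6, 47.1 and 60.2 against 46.9, 54.5 and 62.6 (0.17, edgeR adjusted p = 0.331). Pcdhb7 had 31.0, 38.4 and 43.9 against 41.8, 44.7 and 50.5 (0.25, edgeR adjusted p = 0.0646), and Pcdhb5 had 16.8, 21.4 and 39.2 against 20.9, 27.1 and 32.04 (0.20, edgeR adjusted p = 0.438).

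Control soma 4 and the high and low sets, which were read from the Eif2s3y level and not from the labels, moved these counts. Over the 54 members tested, 6 (1 beta and 5 gamma) had every stretched value above every control value, beside 1.31% of all genes. With control soma 4 left out, the number was 24 (7 beta and 17 gamma), beside 12.3% of all genes. Without that library edgeR called 19 gamma and 12 beta members higher, beside 18.2% of all genes. In the high set alone it called 18 gamma and 8 beta members higher, beside 16.5% of all genes. In the low set alone 0 genes of the whole table passed, and with control soma 4 left out of that set, 15 gamma and 7 beta members did, beside 13.2% of all genes. With the set as a covariate 16 gamma and 7 beta members were called, beside 33.9% of all genes in either direction, and with the level of 4 Y-linked genes as a covariate 9 and 6, beside 27.5%. With that level and the replicate number as a block together, 0 genes of the whole table passed. The median log2 fold change in that fit was 0.14 for the gamma members and -0.004 for the beta members. The part of the astrocyte level in these changes was not tested. The level falls with fewer cells of a type as well as with less RNA per cell, and these cannot be told apart here.

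Longer transcripts had higher fold changes in this comparison over all genes (across 15620 genes, which share libraries, Spearman's rho was 0.46). The median length of the longest transcript was 4722 bases in gamma, 3714 in beta and 5350 in alpha members, against 3304 over all genes tested. By this length the alpha members were the longest. By the bases not shared on their own strand, on which their counts rest, the medians were 2630 in gamma, 3714 in beta and 2480 in alpha. The offset below used the longest transcript, so for alpha and gamma members it does not follow the length counted. With an offset for length, 6 gamma members (Pcdhga3, Pcdhga5, Pcdhga7, Pcdhga8, Pcdhga11 and Pcdhgb4) and 2 beta members (Pcdhb3 and Pcdhb13) were called higher, beside 5.99% of all genes. The median log2 fold change was then 0.30 in gamma, 0.21 in beta and -0.29 in alpha members.

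Genes known to act on or with the clustered protocadherins were described as lists, with no test of a list. Of 18 regulators of promoter choice, looping and silencing, 5 rose and 2 fell, with a median log2 fold change of 0.17. Over all genes tested 11.2% rose and 13.9% fell, with a median of -0.03. Rad21, a cohesin subunit, had 102 ± 26.9 CPM in control and 147 ± 8.08 in stretched somata (SD, n = 6 each; log2 fold change 0.52, edgeR adjusted p = 0.0134). The other cohesin subunits on the list that changed went the other way: Smc3 fell from 176 ± 22.4 to 132 ± 19.8 CPM (SD, n = 6 each; -0.42, edgeR adjusted p = 0.0146) and Smc1a from 109 ± 15.5 to 87.3 ± 3.67 CPM (SD, n = 6 each; -0.32, edgeR adjusted p = 0.0212). Wiz, a zinc-finger protein of histone methyltransferase complexes, rose by a log2 fold change of 0.49 (edgeR adjusted p = 0.00892), and Setdb1, a histone H3 lysine methyltransferase known to protect this locus in neurons, by 0.45 (edgeR adjusted p = 0.0196). Ctcf, which binds the promoters and enhancers of the clusters and is named here after its values were seen, had 27.4 ± 5.30 in controls and 20.2 ± 4.23 CPM after stretch (SD, n = 6 each) and did not pass (-0.44, edgeR adjusted p = 0.0548). With the length offset 2 regulators rose and 4 fell, Ctcf among them (-0.51, edgeR adjusted p = 0.0392), beside 936 of all 15619 genes higher and 1484 lower. Without control soma 4, 8 rose and 2 fell, beside 2889 of all 15857 genes higher and 3183 lower.

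Of 22 partners in signalling and processing, 10 rose and 4 fell, with a median of 0.25, beside 11.2% and 13.9% of all genes. Adam10, the protease that sheds the extracellular part of these proteins, rose from 61.3 ± 20.1 to 119 ± 25.8 CPM (SD, n = 6 each; log2 fold change 0.95, edgeR adjusted p = 0.00657). Abi2, a subunit of the WAVE actin regulatory complex that alpha protocadherins can bind, rose by 0.67 (edgeR adjusted p = 0.0065), while Brk1, the smallest subunit of that complex, fell by 0.52 on the log2 scale (edgeR adjusted p = 0.00656). Nlgn1, a synaptic adhesion protein that gamma protocadherins bind, rose by 0.55 (edgeR adjusted p = 0.0111). Rac1, the GTPase upstream of that complex, had 55.0 ± 38.4 in controls and 21.6 ± 3.01 CPM after stretch (SD, n = 6 each; -1.35, edgeR adjusted p = 0.0191) but was not called within the high set or within the low set without control soma 4. Fyn, a Src-family kinase, fell by 0.70 on the log2 scale (edgeR adjusted p = 0.0127). With the length offset 7 of these partners rose and 2 fell, beside 936 of all 15619 genes higher and 1484 lower. Brk1 then no longer passed (-0.23, edgeR adjusted p = 0.0597).

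Other cadherin families were counted in the same way, beside the 11.2% of all genes that rose and the 13.9% that fell. Of 10 delta protocadherins tested, which are not clustered, Pcdh20 alone rose (172 ± 56.9 to 253 ± 30.8 CPM, SD, n = 6 each; log2 fold change 0.56, edgeR adjusted p = 0.0229) and 0 fell, with a median of 0.18. Of 8 atypical cadherins tested Fat4 alone rose (0.54, edgeR adjusted p = 0.0449), and 0 fell. Of 15 classical cadherins and catenins tested 5 rose (33.3%) and 0 fell, with a median of 0.37, beside 18 of 54 members of the clustered family. Among the 5 were Cdh10 (0.54, edgeR adjusted p = 0.0193), Cdh2, or N-cadherin (0.54, edgeR adjusted p = 0.00855), and Ctnnd1, p120 catenin (0.45, edgeR adjusted p = 0.0331). With the length offset Pcdh20, Fat4 and Ctnnd1 no longer passed.

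Markers of cell types were compared between control and stretched somata in the same way, again beside 11.2% of all genes higher and 13.9% lower. Of 9 neuronal markers 2 rose and 3 fell, with summed levels of 5825 to 6887 CPM in controls and 5518 to 6207 after stretch. Of 9 astrocyte markers edgeR called 0 in either direction, also at an unadjusted p under 0.05, and their sums were 5299 to 14841 and 5518 to 11590 CPM. Within the sets some did pass: 2 rose in the high set, and 2 rose and 1 fell in the low set without control soma 4. Over all genes 16.5% and 13.2% rose in these fits. Gja1, a gap junction protein, rose in both (log2 fold changes 0.50 and 0.69, edgeR adjusted p = 0.0114 and 0.00368). The median log2 fold change of the 9 astrocyte markers was negative in both, at -0.06 and -0.12. Of 8 microglial markers C1qa and C1qb fell and 0 rose, with sums of 40.8 to 86.6 CPM in controls and 29.4 to 36.9 after stretch, which did not overlap. Of 6 oligodendrocyte-lineage markers tested 1 rose and 0 fell. The full list of 8 summed to 42.9 to 74.4 CPM in controls and 39.2 to 56.1 after stretch. Sox10, a defining marker, was the only 1 of the 8 at 0 in all soma libraries. Of 8 endothelial and fibroblast markers 1 fell and 0 rose, and they summed to 136 to 256 and 158 to 259 CPM. Of 6 transcripts of the nucleus or soma 2 fell and 0 rose, with sums of 1415 to 2355 CPM in controls and 850 to 1574 after stretch. These were Malat1, a nuclear noncoding RNA (log2 fold change -0.96, edgeR adjusted p = 0.0188), and the histone gene Hist1h1c (-0.46, edgeR adjusted p = 0.0122), which no longer passed with the length offset (edgeR adjusted p = 0.175). The part of these cells in the protocadherin values was not tested.

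The axonal libraries gave another picture: most members were missing from most libraries, and a member that was present had many reads. At least 1 count was found in 59 of 638 combinations of a member and an axonal library, which is 9.25%. Per library 5.4 members were detected on average in control axons (3 to 15) and 5.33 in stretched axons (2 to 8), against 56.3 and 56.5 in control and stretched somata. Across the 11 axonal libraries 27 members had 0 counts in all, 13 were found in 1 library, 11 in 2, 5 in 3, 1 in 4 and 1 in 5. Where a member was found, its median count was 1161. More than 100 counts were reached in 45 of the 59 cases, and 8 cases had 1 to 3 counts.

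The members seen in axons changed from library to library. Pcdhb8 had 20126 counts in stretched axon 1, the highest value of all, 4 counts in stretched axon 8 and 0 in the other 9 axonal libraries. Pcdhb18 had 8420 counts in stretched axon 2, 598 in control axon 3 and 0 elsewhere, and Pcdhb16 had 8217 in control axon 7 and 0 elsewhere. Pcdhb5 was found in 4 libraries, with 6252 and 12 counts in control axons 2 and 5 and 109 and 7477 in stretched axons 2 and 4. The single member found in most libraries of a group was Pcdhga12, with 4502, 159 and 1737 counts in control axons 1, 5 and 7, and 1 and 8 counts in stretched axons 1 and 8.

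Of the C-type genes, Pcdhac1 had 0 counts in all 11 axonal libraries. Pcdhac2 had 2613 counts in control axon 5 and 1 in stretched axon 8. Pcdhgc3 had 286 counts in control axon 5, and 1225 and 1221 in stretched axons 5 and 6. Pcdhgc4 had 2 and 4553 counts in control axons 2 and 5 and 17 in stretched axon 6, and Pcdhgc5 had 102 in control axon 5. Control axon 5, with 15 members, held the most, and 4 of the 5 C-type genes were found in it.

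**Figure D4:**
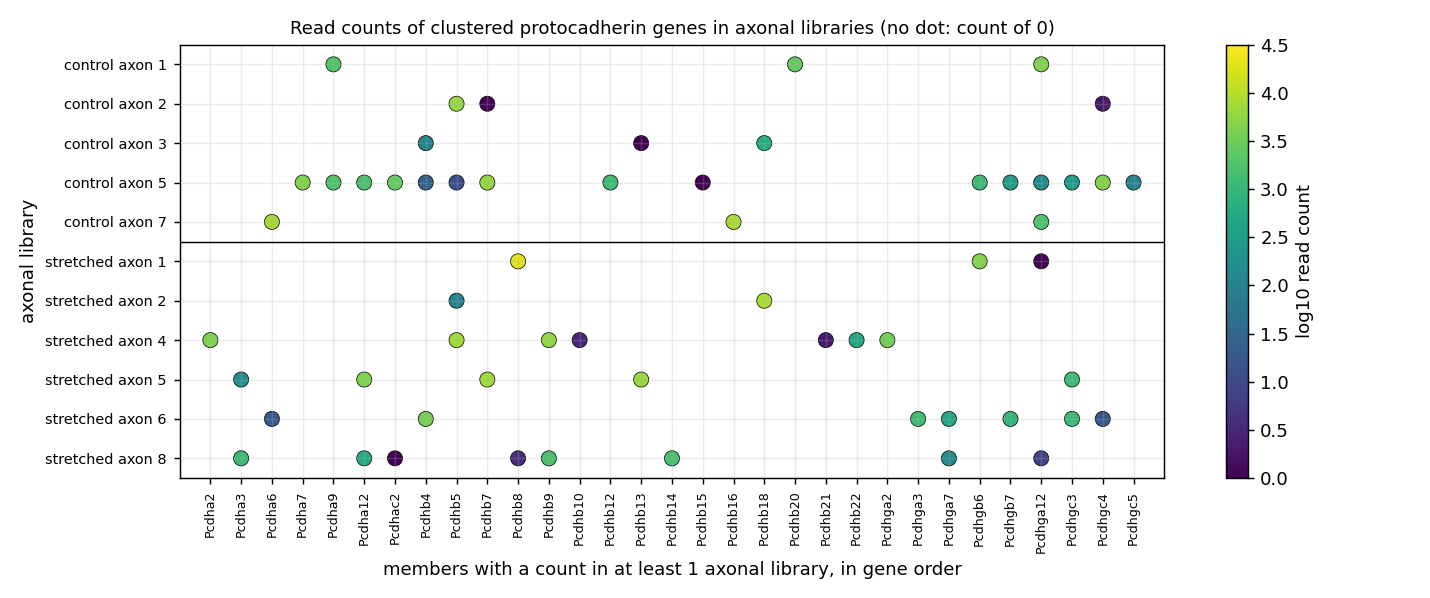
Read counts (colour, log10 scale) of the 31 members with a count in at least 1 of the 11 axonal libraries; no dot means 0 counts, and the line parts control (above) from stretched libraries. The dots fill a small part of the grid, control axon 5 has 15, and Pcdhga12 has the most, in 5 libraries.

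A single member could make up almost the whole axonal signal of the family. Summed over the 58 members, the counts were 702 to 23933 in control axons and 5087 to 24778 in stretched axons, beside 13882 to 23233 and 21212 to 30784 in control and stretched somata. The largest member held 24.2% to 100.0% of the sum in control axons and 31.9% to 98.7% in stretched axons, against 6.00% to 8.46% and 6.43% to 8.22% in the soma groups. The summed axonal level is therefore carried by different members in different libraries.

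Other genes of like soma level were found in axons more often. Among genes at 10 to 100 CPM in somata, the 34 members had a count in 12.6% of their combinations with axonal libraries, and all 7162 genes in that range had one in 39.9%. Of these members 32.4% were never detected in axons, against 3.99% of the genes. At 1 to 10 CPM the shares of combinations were 5.45% for 20 members and 14.8% for 4387 genes. These shares were not tested, and the members lie at different points of each range.

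In the comparison of control and stretched axons, 0 of 58 members passed the filter on low counts, so none was tested there. With no filter edgeR called 0 members. With all 4 groups in 1 fit, in which the somata carry members through the filter and the spread is shared, 20 members were called between control and stretched axons, beside 24.0% of all genes. Of the 4947 genes that did pass, edgeR called 0% at the adjusted threshold (DESeq2 18 genes and limma voom 10, with 0 members among them) and 46 genes at an unadjusted p under 0.05. Of the 31 members found in axons, 13 were found in both conditions.

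The axonal and soma libraries of each condition were then compared. A member with 0 axonal counts passed the filter on low counts only through somata and could be called in no other direction than lower in axons, so the counts of calls are a description and support nothing. Between axons and somata of control cultures, 36 of 54 members tested were lower in axons by edgeR, beside 34.4% of all genes, and 0 were higher, beside 0.856%; at an unadjusted p under 0.05, 38 were lower and 0 higher. In stretched cultures 36 of 54 were lower, beside 28.4% of all genes, and 0 were higher, beside 0.843% (36 and 0 at an unadjusted p under 0.05). By cluster the lower members numbered 7 alpha, 14 beta and 15 gamma in control cultures and 9, 12 and 15 in stretched cultures. Of the 36 lower members, 34 in control and 30 in stretched cultures had 0 axonal counts. Of the tested members with an axonal count, 2 of 20 in control cultures (Pcdhb13 and Pcdhb15, with 1 count each) and 6 of 24 in stretched cultures were called. For those with 0 counts a bound of the fold was set by 3 counts over the group. It covers counting error alone and not the spread between axonal libraries. A member that was found in an axonal library had a median of 1161 counts there. The bound therefore describes read depth and is not a lower bound of the fold in RNA. In control cultures it was 2087-fold for Pcdhb9, at 48.4 ± 8.81 CPM in somata (SD, n = 6), 1318-fold for Pcdhga3 and 1134-fold for Pcdha2. At the other end the bound of Pcdhgb8 was 55.1-fold, and the median bound was 447-fold. In stretched cultures it was 1223-fold for Pcdhga11, at 27.4 ± 2.01 CPM in somata (SD, n = 6), 1080-fold for Pcdhb20 and 1045-fold for Pcdha9. The median bound there was 540-fold.

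Members found in an axonal library often did not pass the test against somata, and their axonal values were a few high libraries beside many at 0. In stretched cultures Pcdhb9 had 55.8 ± 6.38 CPM in somata (SD, n = 6) and a mean of 54.6 CPM in axons that came from 2 of 6 libraries (edgeR adjusted p = 0.967). In control cultures Pcdhgc4 had 33.6 ± 8.95 CPM in somata (SD, n = 6) and a mean of 21.2 CPM in axons, from 2 of 5 libraries (edgeR adjusted p = 0.919). Of the other C-type genes, Pcdhac1, with 0 axonal counts, had such read-depth bounds of 164-fold in control and 129-fold in stretched cultures. Pcdhgc3 passed in neither condition (edgeR adjusted p = 0.128 and 0.665).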

How the data were processed

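The authors deposited whole-number read counts per Ensembl gene for each of 23 libraries. Per the submitters' processing notes, fastp 0.20.1, STAR 2.7.08a and HTSeq 0.13.5 were used with build mm10. The annotation release, the counting mode, the strand setting and any use of the molecular identifiers are not given in the sources used here. Rows of unassigned reads (no feature, ambiguous, multimapped) were kept out of totals and tests. Libraries were grouped by their labels. Groups were compared in pairs with edgeR 4.0.16 in R 4.3.3 (filterByExpr, TMM, robust quasi-likelihood F test) and Benjamini-Hochberg adjustment over all genes tested, with a threshold of 0.05. The standard error is the log2 fold change over the square root of F. Shared exonic bases and transcript lengths came from GENCODE M21. The floor of 3 counts was 0.0697 to 0.183 CPM and covers counting error alone, because the cDNA was amplified. The test was checked on simulated data, drawn around a single mean level per gene apart from planted changes. These data held no high and low sets, no outlying library and no length trend, so the check does not cover those. Alternatives used DESeq2 1.42.0, limma 3.58.1 and smooths from mgcv 1.9.3. Splits into the high and low Eif2s3y sets, GC offsets and leaving out both number-4 soma libraries were chosen after seeing the data.

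Named members are the C-type genes, per comparison the called ones (of more than 12, the 6 highest and 6 lowest log2 fold changes), in somata the 3 most abundant and the least abundant of each cluster, and in axons those in at least 50% of a group's libraries. Others named here were chosen after their values were seen. Of the gene lists, up to 3 called genes each way are named. The members and lists were chosen with earlier results of these data known. Replicate numbers were checked as pairs: deviations from the group means correlated at 0.0752 to 0.285 in the 5 same-numbered soma pairs. Their mean was 0.211, against -0.0336 in soma pairs of different number. The values are thus a hint of pairing in somata, but each of the 5 pairs also lies within the high set or within the low set. The difference between these means does not part pairing from a shared set. The main tests were run without a replicate block, and fits with the block are given as alternatives.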

Additional observations from a re-analysis of the deposited data

Results flagged for a closer look

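In groups of 4 to 10 libraries, a single library lay far from the others, by Dixon's criterion, in 12 of 54 groups tested. For independent groups chance gives about 1 in 20. These groups share libraries, and a cluster sum holds its own members, so that rate is no yardstick for the 12. Control soma 4 accounted for 5. Its gamma sum was 446 CPM against 269 to 314 in the other controls, Pcdhga3 was 47.2 against 23.7 to 30.7, Pcdhga11 27.6 against 14.0 to 17.5, Pcdhga7 17.1 against 10.3 to 11.8 and Pcdhb5 39.2 against 16.8 to 24.2. Control soma 3 was highest for the alpha sum, at 216 against 187 to 193, and for Pcdhb1, at 0.454 against 0.0424 to 0.129. Stretched soma 1 was lowest for the alpha sum, at 154 against 180 to 191, and for Pcdha9, at 19.2 against 22.7 to 24.7. Pcdhac2 was 27.2 in stretched soma 2 against 11.6 to 17.2, Pcdhga11 30.5 in stretched soma 5 against 25.3 to 27.1, and Pcdha12 26.8 in stretched soma 6 against 21.4 to 22.7. What sets these libraries apart was not tested.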

How the results depend on the processing

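With each library left out in turn, the soma comparison called 2 to 12 beta members and 9 to 19 gamma members higher, the most without control soma 4, and 0 alpha members and 0 lower. The whole table moved as well: genes called in either direction ran from 2666 of 15876 (without control soma 1) to 6072 of 15857 (without control soma 4). The gamma ratio ran from 1.36 to 1.53. In axons against somata, 35 to 46 members were lower in control and 36 to 39 in stretched cultures. With all libraries in, 34.4% and 28.4% of all genes were lower there. Control axons held 3 to 6 members on average and stretched axons 4.8 to 6. Without control axon 5, control axons held 3 members.

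Counts of members are followed by the share of all genes called in either direction by the same fit. Beta members called higher numbered 3 with no filter (9.22%), 8 with limma voom (35.5%), 3 with the replicate block (20.7%), 2 with the length offset (15.5%) or the length and GC offset (16.0%), 8 in the high set (29.2%), 0 in the low set (0%) and 9 without both soma libraries numbered 4 (36.1%). In the same fits gamma members numbered 6 with the length offset, 8 with length and GC and 0 in the low set. Both were 0 with all 4 groups in 1 fit, where 0 genes of the whole table passed, and with the replicate block and the Y-linked level together, where again 0 genes passed. The replicate block with the length offset gave 0 beta and 5 gamma members (12.4%), and with length and GC 0 and 6 (13.2%). The block alone gave 11 gamma members; 6 of 10 soma libraries correlated best with their own number, so the numbers are a weak hint of pairing. An alpha member, counted once, was called (lower) with the length and GC offset and in the high set: 1 in each. The gamma ratio was 1.47 in the high set, 1.33 in the low set and 1.54 without both libraries numbered 4. With all 4 groups in 1 fit, 20 members were called between control and stretched axons (24.0%), and the cause was not tested.

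Estimates near 0 changed sign. Pcdha2 was 0.025 with total counts only, 0.013 with no filter, 0.10 with all groups in 1 fit, 0.025 with the replicate block, 0.0038 with the Y-linked level, 0.13 in the low set, 0.22 there without control soma 4, and -0.064 (without control soma 6) to 0.013 (without control soma 5) with 1 library left out. Pcdha12 was -0.011 with the Y-linked level, -0.18 with the length offset, -0.090 with the block and length, -0.18 with length and GC, -0.090 with the block, length and GC, -0.10 in the high set, and -0.044 (without control soma 6) to 0.11 (without control soma 3) with 1 library left out. Pcdha9 was -0.082 with the block and Y-linked level, -0.15 with length, -0.16 with the block and length, -0.15 with length and GC and -0.17 with the block, length and GC. Pcdhb5 was -0.065 with the block and Y-linked level. Pcdhac1 was 0.017 in the low set and 0.11 there without control soma 4. A count of 0 in axons limits reads at this depth, not expression.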
